A study of Mus musculus with 5 samples.

Results

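Hox genes in the thoracic aorta were examined as a family, in mice that carry a dominant negative form of the nuclear receptor PPARγ in smooth muscle and in littermates without it. The members were 38 Hox genes of the HoxA, HoxB, HoxC and HoxD clusters. Of these, 33 were read, each by its brightest probe set (highest mean of 5 arrays) among those that the platform annotation gives to that gene alone. Together they had 48 such probe sets, and the arrays read 18193 genes in the same way. Hoxa6, Hoxc11 and Hoxc12 had no probe set in the annotation used, and Hoxb8 and Hoxd4 appeared only in probe sets shared with a neighbouring Hox gene, so these 5 were not read.

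Thoracic aortas came from male mice of the C57BL/6 strain, and 5 Affymetrix whole-genome arrays were hybridised. There were 2 arrays of non-transgenic littermates and 3 of transgenic mice, and every sample was a pool of RNA from 6 to 8 aortas. The transgenic mice, called P467L here, carry human PPARγ with the P467L mutation, driven by the promoter of smooth muscle myosin heavy chain (SMMHC), so the other cells of the vessel wall were not targeted. No age was given in the sources used here. The pools are described as independent, and p-values measure the spread between pools.

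Hox genes encode homeodomain transcription factors that give cells their position along the body axis. Genes at the 3′ end of a cluster (low paralog numbers) are switched on early and reach far anterior, and genes at the 5′ end (high numbers) are restricted to posterior tissue and limbs. Adult vascular smooth muscle and fibroblasts keep part of the Hox pattern of the region they came from. Hox proteins bind DNA together with Pbx, Meis and Pknox cofactors, retinoic acid induces the 3′ genes, and Polycomb and Trithorax proteins hold the clusters silent or active.

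All values are on the log2 scale, so a difference of 1 is a doubling, and differences are P467L minus non-transgenic. Values of different probe sets are not amounts that can be ranked, because probes differ in how strongly they bind. Expression was therefore read only as above or not above a dim reference level. That level, 7.14, was the 95th percentile of the means of 64 measured genes of other tissues, such as photoreceptor, lens, sperm and pituitary genes. The median of all probe set means was 6.23. Of the 64 reference genes, Cyp2e1 had the highest mean at 10.19, followed by Umod at 8.76 and Rom1 at 8.25.

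Of the 33 Hox genes, 11 lay above the dim reference level: Hoxa3, Hoxa4, Hoxa5, Hoxa7 and Hoxa9 in HoxA, Hoxb2, Hoxb3, Hoxb4, Hoxb5 and Hoxb6 in HoxB, and Hoxc9 in HoxC. Of all 18193 genes read the same way, 9669 lay above it. In HoxA and HoxB 5 of 9 genes each were above it, in HoxC 1 of 7 and in HoxD 0 of 8. By position, 7 of 13 genes of paralog groups 1 to 5 were above the level, 4 of 10 of groups 6 to 9, and 0 of 10 of groups 10 to 13. In HoxB the genes above the level were 5 neighbours, Hoxb2 to Hoxb6, and the genes on either side, Hoxb1 and Hoxb7, were not. The members just inside the level were Hoxa9 at 7.17 and Hoxa4 at 7.28, and those just outside were Hoxc6 at 7.11 and Hoxa2 at 7.08. With the 90th percentile of the reference as the level, at 6.83, Hoxa2 and Hoxc6 were added, and with the median of all probe sets, Hoxc4 and Hoxd9 as well. The highest reference gene lay above every Hox gene, so with it as the level the count was 0.

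**Figure D1:**
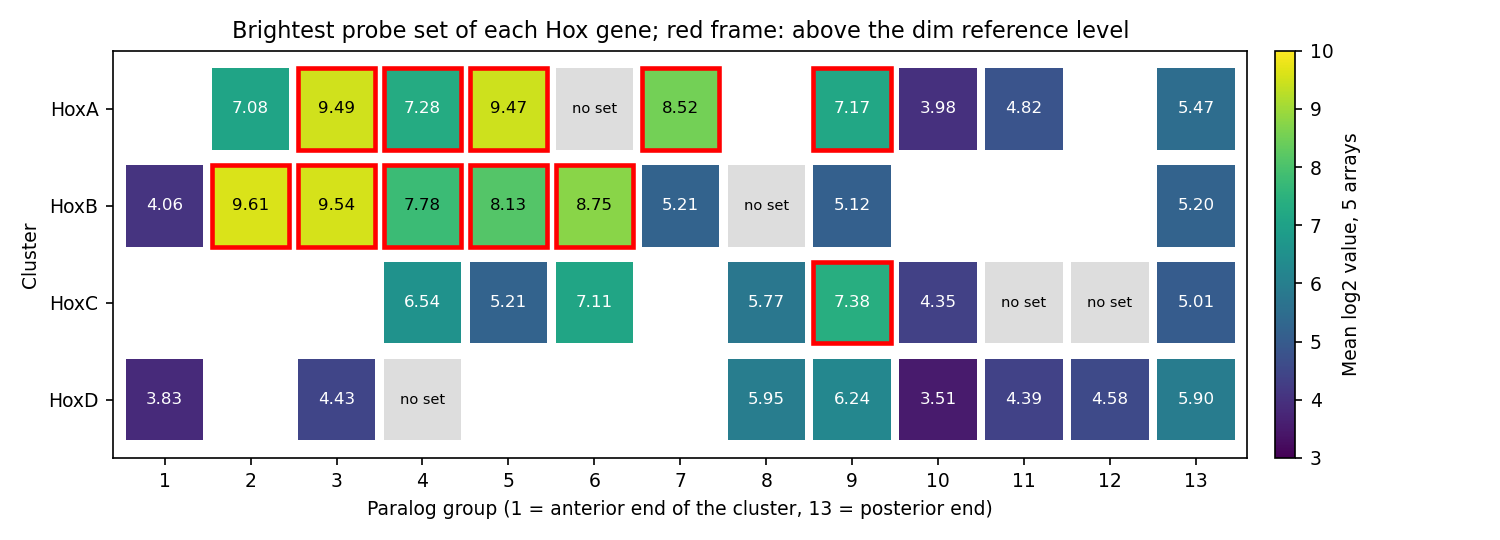
Mean log2 value over the 5 arrays of the brightest probe set of each Hox gene, by cluster (rows) and paralog group (columns); red frames mark the 11 genes above the dim reference level of 7.14, grey cells the 5 genes that were not read, and empty cells are not among the genes analysed. Framed genes lie in HoxA, HoxB and HoxC up to paralog group 9, and colours are not amounts that can be compared between genes.

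Among the anterior genes of HoxB, Hoxb2, which patterns the hindbrain in the embryo, measured 9.56 and 9.50 (non-transgenic replicates 1 and 2) against 9.86, 9.68 and 9.44 (P467L replicates 1 to 3), the order used for every gene. Its groups overlapped, since P467L replicate 3 was the lowest of the 5. Its difference of 0.13 became 0.03 when P467L replicate 1 was left out and 0.24 when replicate 3 was. The adjacent Hoxb3 measured 9.46 and 9.56 against 9.54, 9.49 and 9.64, and Hoxb4, known for expanding blood stem cells when forced, 7.81 and 7.68 against 7.84, 7.83 and 7.73. Both overlapped, with intervals of the difference from -0.13 to 0.22 for Hoxb3 and from -0.12 to 0.23 for Hoxb4. Hoxb6 measured 8.66 and 8.72 against 8.85, 8.72 and 8.79, with P467L replicate 2 equal to the higher non-transgenic array.

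In HoxA, Hoxa3, needed for the third pharyngeal arch and its artery, measured 9.45 and 9.54 against 9.59, 9.43 and 9.45. Hoxa7 measured 8.51 and 8.49 against 8.58, 8.54 and 8.46, and its interval from -0.11 to 0.16 was the narrowest of the 11. Hoxa9, known in endothelial and blood cells, measured 7.20 and 7.20 against 7.31, 7.01 and 7.11. Hoxc9, the lone HoxC gene above the level and one expressed at thoracic levels, measured 7.49 and 7.34 against 7.43, 7.36 and 7.27. The groups overlapped in each of these 4 genes.

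Of the 33 Hox genes, 0 were called by limma at an adjusted p of 0.05 (Benjamini-Hochberg over 45037 probe sets), where 0% of all probe sets and 0% of genes were called and the smallest adjusted p was 0.0953. At an unadjusted p of 0.05, 3 of 33 (9.09%) lay past the threshold, Hoxa2 and Hoxb5 higher and Hoxa4 lower, beside 9.45% of all 18193 genes and 7.44% of all probe sets. Without P467L replicate 2 the count of Hox genes past it was 0. Over all genes 6.94% were past it and higher and 2.51% past it and lower. The groups did not overlap in 6 of 33 Hox genes (18.2%), beside 22.7% of all genes (16.1% higher and 6.55% lower). They were Hoxa2, Hoxa5 and Hoxb5, higher, and Hoxa4, Hoxc5 and Hoxc10, lower. Among the 11 genes above the dim reference level 3 did not overlap, beside 31.7% of genes above it. The counts for Hox genes were near these shares. Hoxa4 was among the 11 through its non-transgenic mean of 7.59, since its P467L mean of 7.07 lay below the level. The choice of the 11 therefore depended in part on the group difference. With each array centred on its median, 11 Hox genes did not overlap, 9 higher and 2 lower, beside 32.1% and 3.33% of all genes, and the share of probe sets past the unadjusted threshold that were higher went from 63.2% to 77.1%. Fewer arrays make overlap rarer. When non-transgenic replicate 2 was left out, 16 Hox genes did not overlap, beside 42.9% of all genes. The count was 10 beside 41.6% when non-transgenic replicate 1 was left out, and 11 beside 36.7% when P467L replicate 3 was. The median difference was 0.00 over the Hox genes and 0.02 over all genes, and the median size of the difference was 0.06 and 0.08. By mean, 16 Hox genes were higher and 16 lower in P467L, beside 56% and 42.2% of all genes. A difference of 0.5 or more occurred in 1 Hox gene, beside 2.33% of all genes. Of the 33 differences, 30 were smaller than 0.2 in size and 24 smaller than 0.1.

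Hoxa4, an anterior gene of its cluster that is known to be expressed in aortic smooth muscle, had the largest difference of the family. It measured 7.74 and 7.44 against 7.25, 7.03 and 6.94. All P467L arrays lay below both non-transgenic arrays, and the gap between the groups, from 7.44 to 7.25, was smaller than the gap between the non-transgenic arrays. The means were 7.59 ± 0.21 (SD, n = 2) and 7.07 ± 0.16 (SD, n = 3), a difference of -0.52 (SE 0.14, interval from -0.90 to -0.13) or 30.1% less signal. limma gave an unadjusted p of 0.0195 and an adjusted p of 0.536, so it did not pass. With array weights, whose estimate stopped before convergence, limma called Hoxa4 (adjusted p = 0.0462), Hoxb5 (0.0417) and Hoxc5 (0.0456). That setting called 2245 of 45037 probe sets and put 31.4% of all genes past the unadjusted threshold. It gave P467L replicate 2 a weight of 34.1, beside 0.148 and 0.244 for P467L replicates 1 and 3. In the main fit, 0.967% of all 18193 genes differed downward by as much as Hoxa4 or more. The mean of P467L lay below the dim reference level and the non-transgenic mean above it, so the size of the difference can be understated.

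A second Hoxa4 probe set was dim throughout, at 3.88 and 3.74 against 3.64, 3.57 and 3.71, a difference of -0.17. With both probe sets averaged, the difference was -0.34. The gene table's span of Hoxa3 encloses Hoxa4, Hoxa5 and Hoxa6, and Hoxa3 differed by -0.005 (interval from -0.19 to 0.18). The log2 difference between Hoxa4 and Hoxa5 within an array was -1.71 and -1.88 against -2.32, -2.51 and -2.54. The same quantity for Hoxa4 and its paralog Hoxb4 was -0.07 and -0.24 against -0.59, -0.80 and -0.79. These within-array differences restate the values of the single genes, and unequal change of the pairs was not tested.

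**Figure D2:**
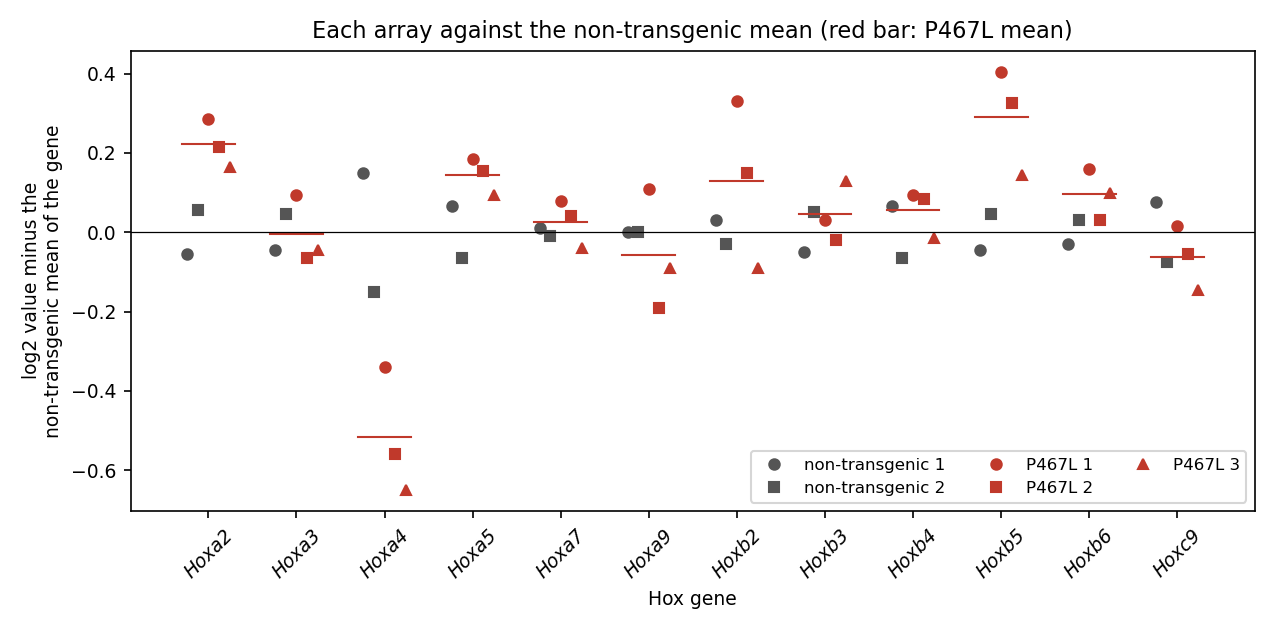
For the 11 Hox genes above the dim reference level and Hoxa2, the log2 value of each array minus the gene's non-transgenic mean (grey: non-transgenic replicates, red: P467L replicates, red bar: P467L mean). Hoxa4 is the gene with all P467L arrays below both non-transgenic arrays, and Hoxa2, Hoxa5 and Hoxb5 are those with all above.

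Hoxb5, which is expressed in the endothelium and in the neural crest of the gut, measured 7.91 and 8.00 against 8.36, 8.28 and 8.10. The groups did not overlap. The difference was 0.29 (SE 0.09, interval from 0.04 to 0.55), or 22.4% more signal, with a limma unadjusted p of 0.0330 and an adjusted p of 0.603. Of all genes, 4.46% differed upward by as much or more. Hoxb5 was read by 1 probe set.

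Hoxa2, which sets the identity of the second pharyngeal arch, measured 6.89 and 7.0 against 7.23, 7.16 and 7.11, again without overlap. Its difference was 0.22 (SE 0.06), with a limma adjusted p of 0.536, and 7.98% of all genes differed upward by as much or more. It lay just under the dim reference level. Hoxa5, which is known to restrain endothelial migration, measured 9.45 and 9.32 against 9.57, 9.54 and 9.48, a difference of 0.14 (SE 0.06, limma adjusted p = 0.721). It was 0.08 when non-transgenic replicate 2 was left out and 0.0725 with both Hoxa5 probe sets averaged. A second Hoxa5 probe set gave 8.30 and 8.26 against 8.35, 8.26 and 8.23 and overlapped between the groups. Hoxc5 and Hoxc10 were the other members without overlap, both lower by -0.14 and -0.16, and both far below the dim reference level, at means of 5.21 and 4.35. Other Hoxc5 probe sets, dimmer still, differed by -0.085 and by 0.12, and each overlapped between the groups.

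Of the 33 members, 19 had a promoter window in the RefSeq table (GRCm38.p6), and Hoxa4 and Hoxb5 were not among them. The 250 bases before the start of Hoxa2 and Hoxa5 are shown because these were the HoxA genes whose P467L arrays all lay above the non-transgenic ones. Capitals mark matches on either strand to TGATNNAT, the site that Hox and Pbx proteins bind together, and to TGACAG, the Meis site. The Hoxa2 window is chr6:52164832-52165081 and the Hoxa5 window chr6:52204588-52204837, both on the minus strand and printed 5′ to 3′ along the gene.

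Hoxa2: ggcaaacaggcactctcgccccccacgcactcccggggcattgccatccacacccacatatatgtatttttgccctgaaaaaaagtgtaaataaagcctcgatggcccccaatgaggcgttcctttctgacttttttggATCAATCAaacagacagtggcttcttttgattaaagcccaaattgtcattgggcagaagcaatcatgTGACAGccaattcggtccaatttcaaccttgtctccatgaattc

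Hoxa5: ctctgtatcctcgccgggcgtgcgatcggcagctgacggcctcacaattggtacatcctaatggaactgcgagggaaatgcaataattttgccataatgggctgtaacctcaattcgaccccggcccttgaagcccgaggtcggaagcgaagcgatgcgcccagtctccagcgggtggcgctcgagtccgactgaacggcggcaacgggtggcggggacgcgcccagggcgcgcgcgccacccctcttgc

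The Hoxa2 window held 1 match to TGATNNAT, on the opposite strand and starting 111 bases before the gene's start, and 1 to TGACAG, 44 bases before it. These letters were not in the Hoxa5 window. TGATNNAT occurred in 7.68% of all 32851 windows of this length and TGACAG in 15.9%, and in 3 and 2 of the 21 windows of measured Hox genes. The direct repeat that PPAR binds, a pair of AGGTCA units 1 base apart, occurred in 0.0335% of all windows and in 0 of the 21, and its AGGTCA unit in 14% and in 5. The searched motifs overlap in part, since the repeat holds that unit. Only the exact repeat was searched, and it is so rare that its absence from 21 windows says nothing about PPAR binding. By base composition the Hoxa2 window had 46.4% G and C with 6 CpG dinucleotides, and the Hoxa5 window 63.6% with 28.

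**Figure D3:**
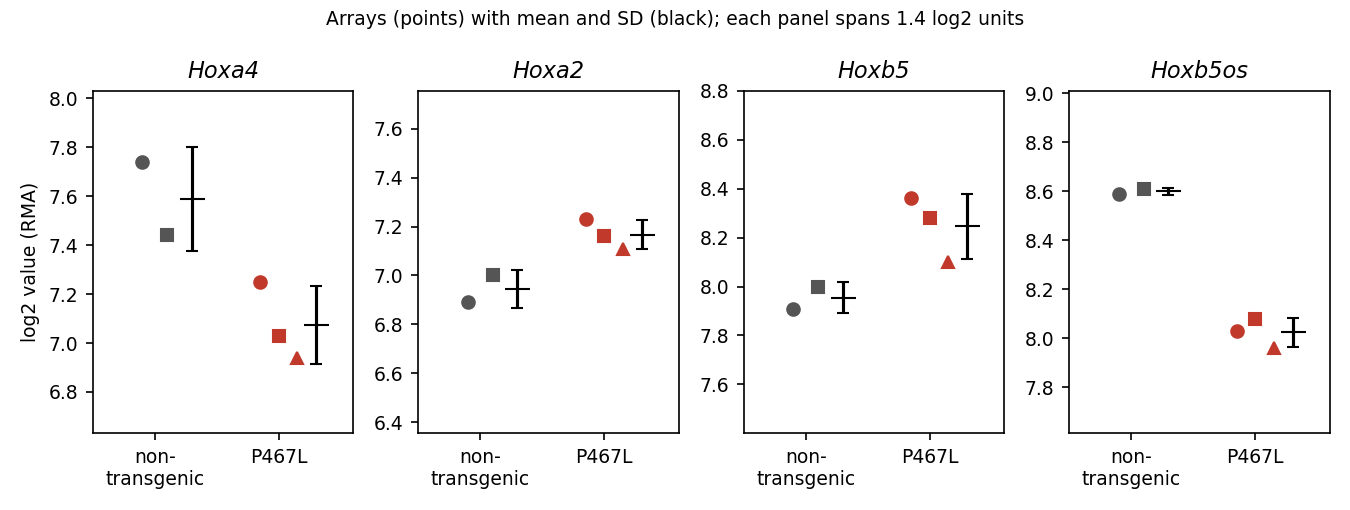
Log2 values of Hoxa4, Hoxa2, Hoxb5 and the noncoding Hoxb5os in each array (points), with the mean and SD of the 2 non-transgenic and 3 P467L arrays in black; each panel spans the same height. The groups do not overlap in any of the 4 panels, and Hoxb5os has the widest gap, from 8.59 down to 8.08.

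The remaining 22 genes that were read lay below the dim reference level and include the 8 HoxD genes that were read. Genes of paralog groups 10 to 13, which pattern the limb and the lower trunk in the embryo, ranged in mean from 3.51 for Hoxd10 to 5.90 for Hoxd13. Some dim genes barely varied: Hoxb13 measured 5.20 in all 5 arrays, the values of Hoxb9 spanned 0.03 and those of Hoxd12 0.04. Hoxc6, a thoracic gene close to the level, measured 7.11 and 7.02 against 7.43, 7.06 and 6.94, so that P467L replicates 1 and 3 lay on opposite sides of the non-transgenic arrays. Hoxc8, also a thoracic gene, had a mean of 5.77 and a difference of 0.01, while Hoxd8 and Hoxd9 had means of 5.95 and 6.24 and differences of -0.03 and -0.09. The other dim members, Hoxa10, Hoxa11, Hoxa13, Hoxb1, Hoxb7, Hoxc4, Hoxc13, Hoxd1, Hoxd3, Hoxd10, Hoxd11 and Hoxd13, had differences between -0.09 (Hoxd1) and 0.14 (Hoxd13), and in each of them the groups overlapped.

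**Figure D4:**
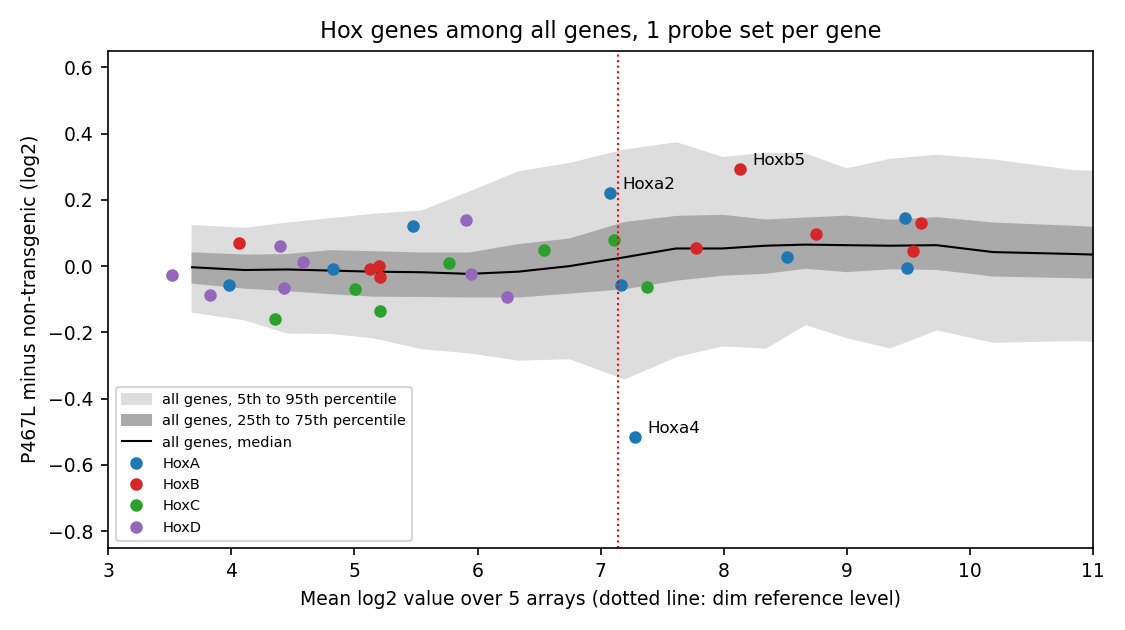
Difference between P467L and non-transgenic arrays (log2) against the mean value of each of the 33 Hox genes, coloured by cluster, over the percentile bands of all 18193 genes read the same way in bins of level. Hoxa4, at -0.52, lies outside the band from the 5th to the 95th percentile of genes of its level, and Hoxa2 and Hoxb5 lie inside it.

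Across replicates, 16 of the 33 Hox genes (48.5%) were highest in P467L replicate 1, beside 44.2% of all genes. This array correlated least with the others over all probe sets, from 0.985 to 0.991, while the highest correlation among the rest was 0.997. Relative to the non-transgenic means, the median Hox gene measured 0.075 in P467L replicate 1, -0.015 in replicate 2 and -0.045 in replicate 3, beside 0.055, 0.005 and 0 over all genes. Without that array the differences were -0.605 for Hoxa4, 0.235 for Hoxb5 and 0.19 for Hoxa2. Without it and without non-transgenic replicate 2, in which stomach transcripts were highest, they were -0.755, 0.28 and 0.245.

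Noncoding transcripts of the clusters were read for 3 of 18 listed genes, and limma called 0 of them at an adjusted p of 0.05 and had 1, Hoxb5os, past an unadjusted p of 0.05. Hoxb5os, annotated as antisense to Hoxb5 and Hoxb6, measured 8.59 and 8.61 against 8.03, 8.08 and 7.96, without overlap. The difference was -0.58 (SE 0.05) with a limma adjusted p of 0.193, and 0.715% of all genes differed downward by as much. Hoxb5, within its span in the gene table, differed by 0.29 and Hoxb6 by 0.10. The log2 difference of Hoxb5 minus Hoxb5os was -0.68 and -0.61 against 0.33, 0.20 and 0.14. The strand that these probe sets read was not checked, so signal of the sense and antisense transcripts cannot be fully told apart. Hoxa11os and Hoxd3os1 lay below the dim reference level and differed by -0.04 and -0.07.

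The lists of genes around the Hox pathway had 0 members called by limma at an adjusted p of 0.05. Of the 10 measured cofactors, which bind DNA beside Hox proteins or limit those that do, 9 lay above the dim reference level and 3 were past an unadjusted p of 0.05, each higher in P467L. Among genes above the level, 13.7% were past that threshold, 11% higher and 2.74% lower. The repressor Tgif1 measured 7.51 and 7.60 against 7.93, 7.93 and 7.81, a difference of 0.34 (SE 0.06), and Pbx3 8.28 and 8.35 against 8.64, 8.53 and 8.61, a difference of 0.28 (SE 0.05). Their P467L arrays all lay above the non-transgenic ones. Meis1 differed by 0.14 (SE 0.04) by its brightest probe set. With the probe sets of a gene averaged, Pbx3 differed by 0.13 and Meis1 by -0.04. Limma adjusted p was 0.392, 0.405 and 0.588 for the 3 genes. The median of the list was 0.12, and Pknox1, at -0.22, ran the other way.

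Polycomb and Trithorax regulators had 4 of 29 genes past an unadjusted p of 0.05 (13.8%), each higher, and a median of 0.05. Over all genes 9.45% were past it, 6.94% higher and 2.51% lower. Of the 29 regulators, 23 lay above the dim reference level. Among all genes above that level 13.7% were past the threshold, 11% higher and 2.74% lower, and the median difference was 0.05. The list's share and median were near these values. The counts of the next lists stand beside both sets of shares. Rbbp5, a subunit of histone H3K4 methyltransferase complexes, differed by 0.21 (SE 0.04) and the H3K27 demethylase Kdm6b by 0.38 (SE 0.11). The Polycomb protein Cbx2, whose mean of 6.94 lay below the dim reference level, differed by 0.29 (SE 0.09). Limma adjusted p of Rbbp5, Kdm6b and Cbx2 ran from 0.414 to 0.588. With probe sets averaged, Kdm6b differed by 0.14 and Cbx2 by 0.12, and without non-transgenic replicate 1 Kdm6b differed by 0.24. Of 16 retinoid genes 2 (12.5%) were past the unadjusted threshold, in opposite directions. Rarb, a retinoic acid receptor that retinoic acid induces, measured 7.26 and 7.26 against 8.14, 8.07 and 8.07, a difference of 0.83 (SE 0.04, limma adjusted p = 0.0953). The limma adjusted p of Rarb was 0.0384 with probe sets averaged, 0.0484 with adjustment over genes, and 0.00519 and 0.0112 with the 2 estimates of array weights, and over all 15 alternatives it ran from 0.00519 to 0.746. The retinoic acid degrading enzyme Cyp26b1 measured 7.97 and 7.89 against 7.44, 7.34 and 6.97, a difference of -0.68 (SE 0.16, limma adjusted p = 0.489). The receptor Rxra differed by 0.17 (limma adjusted p = 0.738), or by 0.03 with probe sets averaged, and the list's median was 0.04.

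Genes that flank the clusters had a median of -0.01 over 19 genes, with 1 past the unadjusted threshold in each direction (10.5% in all): Calcoco1, beside HoxC, at 0.49 (SE 0.15) and the dim homeobox gene Evx1, beside HoxA, at -0.35 (SE 0.12). Mtx2, beside HoxD, differed by 0.17, or by 0.10 without non-transgenic replicate 2. With probe sets averaged, Calcoco1 differed by 0.28. Other patterning factors had 7 of 37 past it (18.9%), 5 higher and 2 lower, with a median of 0.03. Hand2, a heart and vessel regulator, measured 7.71 and 7.74 against 8.39, 8.15 and 8.34, a difference of 0.57 (SE 0.09), or 0.38 with probe sets averaged. The homeobox gene Irx3 measured 7.01 and 7.16 against 8.24, 7.92 and 7.84, a difference of 0.92 (SE 0.14), and Foxf1, a factor of visceral mesoderm, differed by -0.41 (SE 0.08). In these 3 genes the groups did not overlap, and limma adjusted p was 0.320, 0.337 and 0.443.

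**Figure D5:**
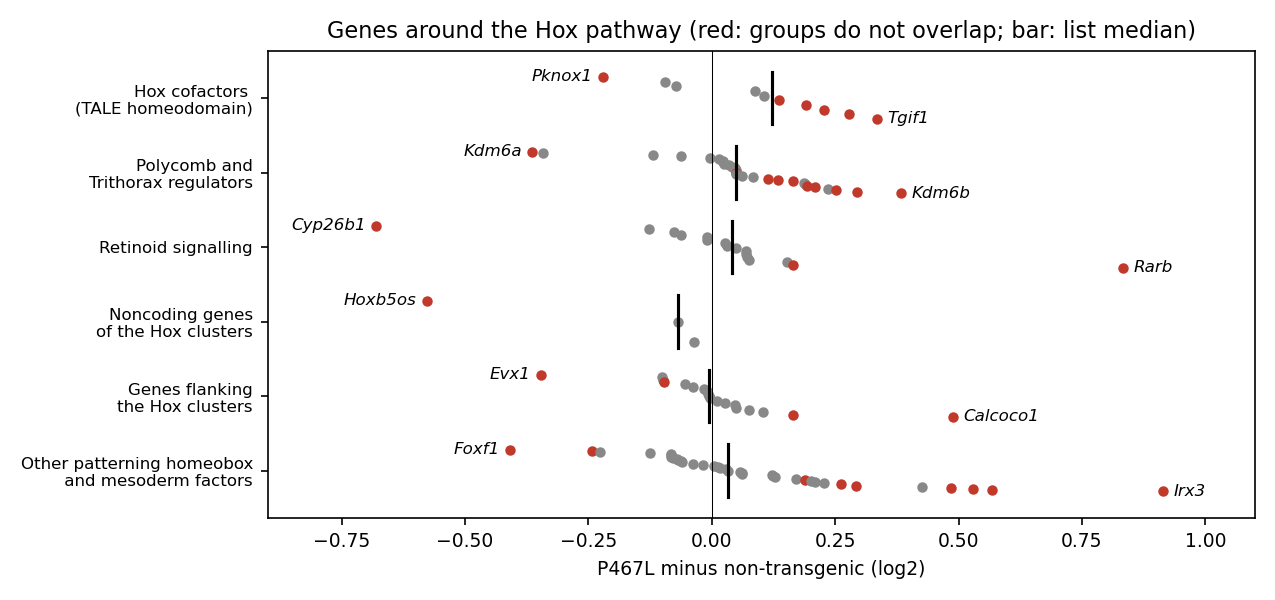
Difference between P467L and non-transgenic arrays (log2) of each measured gene in 6 lists around the Hox pathway; red points are genes whose groups do not overlap and black bars are list medians. Named points are the extremes of each list without overlap, and the cofactor list has the highest median, 0.12.

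The aorta holds several cell types, and in such bulk RNA fewer cells of a type and less RNA per cell cannot be told apart. All 10 smooth muscle markers lay above the dim reference level, with a median difference of -0.01. Fibroblast markers were above it in 9 of 9 cases (median 0.06), endothelial in 8 of 10 (0.03), adipocyte in 7 of 10 (0.00), macrophage in 10 of 10 (0.23), stomach and oesophagus in 7 of 12 (-0.50), cardiac in 4 of 10, and respiratory and thymic epithelium in 2 of 10. Skeletal muscle and nerve had 1 each above it, of 10 and of 6, and lymphocyte markers 0 of 8. Single markers ran both ways: from -0.66 to 0.64 for fibroblast, -1.05 to 0.73 for endothelial and -0.355 to 0.805 for smooth muscle. Past a limma unadjusted p of 0.05 were 4 of 9 fibroblast (3 higher, 1 lower) and 3 of 10 endothelial markers (2 higher, 1 lower). For smooth muscle it was 2 of 10, both higher, beside 9.45% of all genes and 13.7% of genes above the level. Macrophage markers were higher in P467L in 10 of 10 genes, and lymphocyte markers lower in 8 of 8 with a median of -0.16. Of all genes, 56% were higher and 42.2% lower by mean. P467L replicate 1 was the highest array in 9 of 10 macrophage markers, beside 44.2% of all genes. The log2 of the summed lymphocyte signal was 9.64 and 9.62 against 9.62, 9.34 and 9.39, and that of macrophages 13.27 and 13.31 against 13.65, 13.30 and 13.52. The stomach and oesophagus sum was 11.55 and 14.98 against 12.33, 12.45 and 12.15, so non-transgenic replicate 2 stood above the other 4 arrays. Without that array the list's median difference was 0.08, with 7 genes higher and 4 lower. The adipocyte sum was highest in non-transgenic replicate 1, at 13.33, as was Hoxa4, and it measured 12.52 in the other non-transgenic array and 12.82, 12.35 and 12.63 in P467L. The part of these cell types in the Hox differences was not tested.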

How the data were processed

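The deposited values are log2 expression per probe set. Per the submitters' processing notes the authors used Affymetrix Power Tools and RMA, with no version stated. RMA brings the arrays' distributions close together and compresses very low values, which can hide a change common to most genes; the medians of the deposited arrays ran from 6.17 to 6.25.

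Groups came from the genotype label. Probe sets were named from the platform annotation, with symbols brought up to date by Entrez number in a RefSeq gene table (GRCm38.p6) that served for names and neighbours only. Of 45037 probe sets without the 64 Affymetrix controls, 34945 had 1 gene, 932 several and 9160 none. The 2 genotypes entered a two-sided limma fit (version 3.58.1, R 4.3.3) without covariates, with p-values adjusted over all probe sets, with intervals at 95% from the moderated fit; the number of arrays limits the precision. The pipeline was tested on simulated data.

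Every Hox gene was named; values per array were given for those above the dim reference level or past an unadjusted p of 0.05, with the others by range and count. Of each companion list the 3 genes with the smallest p were named. Values of Hoxc6 and of further genes were added after they were seen. The members and lists were chosen with earlier results of these data known. Alternatives covered a replicate block, scaling, filters, the variance model, array weights, the reading of genes, the reference level and leaving out arrays. Replicate numbers 1 and 2 occur in both groups, but nothing in the labels says that they pair samples.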

Additional observations from a re-analysis of the deposited data

How the results depend on the processing

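No paired analysis is implied by the labels. With the replicate number as a block, 0 Hox genes were called and 3 were past an unadjusted p of 0.05, beside 10.4% of all genes. The 3 were Hoxa4, Hoxb5 and Hoxb2, with Hoxa2 no longer among them, and Hoxa4 differed by -0.45. Deviations of same-numbered arrays correlated at 0.113 and 0.00814. Hoxa4 was lower and Hoxa2, Hoxa5, Hoxb5 and Hoxb6 were higher under all 15 alternatives. The difference lay between -0.755 and -0.34 for Hoxa4, 0.17 and 0.28 for Hoxa2, and 0.06 and 0.21 for Hoxa5. It lay between 0.235 and 0.365 for Hoxb5, and 0.03 and 0.14 for Hoxb6. In Hoxa4, Hoxa2, Hoxa5 and Hoxb5 the groups did not overlap, and in Hoxb6 no P467L array lay below a non-transgenic one. Leaving out or weighting arrays could therefore not turn these signs, so only the sizes are informative. Leaving out 1 array at a time gave 0 to 4 Hox genes past an unadjusted p of 0.05, 0 of them without P467L replicate 2, and 7 to 16 without overlap, with 16 on leaving out the second non-transgenic array, 10 the first and 11 the third P467L array, where fewer arrays make overlap rarer; with both arrays that stood apart left out it was 21, beside 59.9% of all genes. Centring each array on its median gave 11 Hox genes without overlap, 9 higher and 2 lower, beside 32.1% and 3.33% of all genes, and 15 probe sets called over the array. At an unadjusted p of 0.05, 63.2% of the probe sets past it were higher, and 77.1% with centring.

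Array weights called 2245 probe sets, 3 Hox genes (Hoxa4, Hoxb5 and Hoxc5) and 16 companion genes, with 11 Hox genes past the unadjusted threshold beside 31.4% of all genes, but the estimate stopped before convergence and gave P467L replicate 2 a weight of 34.1. A gene-by-gene estimate, added after the data were seen as was leaving out both arrays, called 283 probe sets, 0 Hox genes and 3 companions (Rarb, Hoxb5os and Irx3), with 8 Hox genes past the unadjusted threshold beside 23% of all genes. Averaged probe sets gave 7 calls and adjustment over genes 10, each with 1 companion, Rarb. Both settings adjusted over 18193 genes in place of 45037 probe sets, and Rarb differed by 0.83 in both, as in the main fit. The cause was not tested. The highest reference gene as the level left 0 Hox genes above it.

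Differences near 0 turned sign: Hoxa3 to 0.015 with the block, 0.035 with centring, 0.0338 averaged and -0.055 to 0.04 leaving out arrays; Hoxa7 to -0.021 with a second quantile normalization and -0.01 without both arrays; Hoxb3 to -0.0123 with that normalization and -0.0187 and -0.00533 with the weights, and -0.00333 to 0.0967 leaving out arrays; Hoxb4 to -0.03 without both arrays, and -0.01 to 0.12 leaving out arrays; Hoxa9 from -0.14 to 0.01 and Hoxc9 from -0.137 to 0.0133 leaving out arrays; Hoxa11os to 0.00333 with centring and 0.0425 averaged; and Meis1 to -0.0433 averaged.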
